A study of Mus musculus with 9 samples.

Results

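The replication-dependent histone genes are the clustered genes that supply H1, H2A, H2B, H3 and H4 proteins during DNA synthesis. They were taken from the RefSeq annotation of mouse assembly GRCm38.p6 as the protein-coding histone genes in the clusters on chromosomes 13, 3 and 11, by current or listed older symbol. This gave 66 of 21883 protein-coding genes on chromosomes 1 to 19, X and Y. By family there were 6 H1, 18 H2A, 18 H2B, 12 H3 and 12 H4 genes. Chromosome 13 held 54 of them in a proximal cluster of 23 (chr13:21714711-22044658) and a distal cluster of 31 (chr13:23530044-23935913), chromosome 3 held 10 (chr3:96218885-96271192) and chromosome 11 held 2 (chr11:58947911-58956192). Symbols matched in 63 cases by current name and in 3 by older name only, which were H4bc24 (Hist1h2br, an H2B gene in spite of its current symbol), H2bu2 (Hist3h2ba) and H2aw (Hist3h2a).

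These genes are transcribed as cells copy their DNA, in nuclear structures called histone locus bodies that form around the coactivator NPAT. Most of them have no intron, and their mRNA ends in a stem-loop bound by SLBP where other mRNAs carry a poly(A) tail. H2A, H2B, H3 and H4 form the nucleosome core, H1 binds the linker DNA between nucleosomes, and many copies of each core gene encode the same or nearly the same protein.

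The chromatin came from thymus of C57BL/6J mice that carried a T cell lymphoma driven by MYCN, the gene for the transcription factor N-MYC. It was profiled by ChIPmentation, a form of chromatin immunoprecipitation in which a transposase adds the sequencing adapters to chromatin still bound by the antibody. The antibodies were against H3K4me3, a mark of active promoters, H3K27ac, a mark of active promoters and enhancers, p300, an acetyltransferase that writes H3K27ac, and N-MYC. The others were EZH2, the methyltransferase of Polycomb repressive complex 2, its partner SUZ12, and H3K27me3, the repressive mark left by that complex. SUZ12 and H3K27me3 are called the Polycomb marks here. Each antibody had 1 library and 1 peak list, and 2 input libraries complete the 9 samples. All libraries came from lymphoma, with no normal tissue, and the labels do not give the age of the animals. The input libraries are titled input-m70 and input-m71, codes that the labels do not explain, and the immunoprecipitations carry no such code, so the tumour behind each is not given. With 1 library per antibody no difference has a replicate check, so no test is given and every value describes these lists.

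The lists held between 9798 peaks (N-MYC) and 123056 peaks (H3K27me3), and the number of reads behind them is unknown. Of 10 T cell genes read to check the tissue label, 7 had an H3K4me3 peak, among them the Cd3 genes, Lck, Bcl11b and Tcf7, while Cd8a, Ptcra and Rag1 had none. H3K27me3 lay at 3 of the 10, with a fold enrichment of 13.9 at Rag1, 8.29 at Cd8a and 4.69 at Bcl11b, and SUZ12 at 0. Of genes marking other cells of a thymus, H3K4me3 lay at 2 of 3 B cell genes, at 2 of 3 epithelial genes and at 0 of 3 myeloid genes. Over all protein-coding genes, H3K4me3 lay at 54.8%, H3K27me3 at 32% and SUZ12 at 15.7%. With so few genes in each set, these counts cannot settle whether the tissue label holds. Cd79a had H3K4me3 at a fold enrichment of 32.5 and no Polycomb mark. Pax5 had H3K4me3 at 2.96 with SUZ12 at 11.2 and H3K27me3 at 18.8, Foxn1 had 5.52 with H3K27me3 at 7.03, and Epcam had 19.3 with SUZ12 at 3.87. The part such cells play in the histone peaks was not tested.

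The promoters of 61 members are in the RefSeq promoter table (GRCm38.p6), each from 250 bases before to 50 after the gene start. The 8 shown next were picked, with their peaks known, for the patterns described later. H2bc7 and H2ac7 share the promoter beside the strongest N-MYC peak of the set, and H2ac12 and H2bc12 the one beside the next. The testis pair H2bc1 and H2ac1 had the weakest H3K4me3. H3c2 and H4c12 stand for families with frequent and rare EZH2 peaks. The 3 H1 promoters belong to genes without N-MYC (H1f2, H1f5) or with a weak peak (H1f4). Only bases before the start of the first-named gene are printed, 5′ to 3′ on its strand, and for the first 2 pairs the bases between the starts. Capitals mark the CCAAT box (CCAAT, or ATTGG on the other strand), the octamer ATTTGCAT or ATGCAAAT, the TATA box TATAAA, and the H1 box AAACACA or TGTGTTT.
H2bc7 and H2ac7 (chr13:23574208-23574380, minus strand): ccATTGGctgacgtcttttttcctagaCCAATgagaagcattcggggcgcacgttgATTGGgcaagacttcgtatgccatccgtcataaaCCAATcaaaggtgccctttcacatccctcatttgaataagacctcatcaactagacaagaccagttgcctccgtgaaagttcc
H2ac12 and H2bc12 (chr13:22035644-22035820, minus strand): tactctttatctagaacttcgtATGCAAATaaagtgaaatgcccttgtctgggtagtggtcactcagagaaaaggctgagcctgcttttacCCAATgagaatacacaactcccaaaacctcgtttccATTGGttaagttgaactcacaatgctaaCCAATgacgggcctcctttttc
H2bc1 and H2ac1 (chr13:23934157-23934406, minus strand): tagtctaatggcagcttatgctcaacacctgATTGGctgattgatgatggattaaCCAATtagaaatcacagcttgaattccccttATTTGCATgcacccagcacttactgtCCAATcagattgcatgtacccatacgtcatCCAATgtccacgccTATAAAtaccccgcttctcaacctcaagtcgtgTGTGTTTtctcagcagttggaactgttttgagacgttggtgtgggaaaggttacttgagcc
H3c2 (chr13:23752195-23752344, plus strand): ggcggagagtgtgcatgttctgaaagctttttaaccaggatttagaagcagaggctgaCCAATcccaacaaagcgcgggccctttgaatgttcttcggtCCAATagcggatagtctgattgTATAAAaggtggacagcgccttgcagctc
H4c12 (chr13:21750554-21750703, minus strand): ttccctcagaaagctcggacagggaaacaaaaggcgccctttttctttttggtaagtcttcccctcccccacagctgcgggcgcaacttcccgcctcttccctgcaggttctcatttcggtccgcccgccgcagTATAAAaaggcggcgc
H1f2 (chr13:23738657-23738806, plus strand): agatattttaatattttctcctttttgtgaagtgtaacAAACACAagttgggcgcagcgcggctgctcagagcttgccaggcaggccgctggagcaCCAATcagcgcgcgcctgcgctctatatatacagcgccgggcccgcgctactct
H1f4 (chr13:23622559-23622708, minus strand): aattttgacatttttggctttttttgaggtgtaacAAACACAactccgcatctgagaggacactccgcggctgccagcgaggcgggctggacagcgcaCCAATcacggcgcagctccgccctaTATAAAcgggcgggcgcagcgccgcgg
H1f5 (chr13:21780626-21780775, minus strand): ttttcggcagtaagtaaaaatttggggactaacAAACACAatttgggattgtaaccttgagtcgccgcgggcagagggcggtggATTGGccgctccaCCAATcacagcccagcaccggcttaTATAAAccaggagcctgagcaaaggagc
The H2bc7 and H2ac7 promoter has CCAAT boxes in both orientations within 173 bases, and the H2ac12 and H2bc12 promoter adds an octamer. The H1 box stood 112, 115 and 117 bases before the start in H1f2, H1f4 and H1f5, with a CCAAT box 54, 52 and 53 bases before it.

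**Figure D1:**
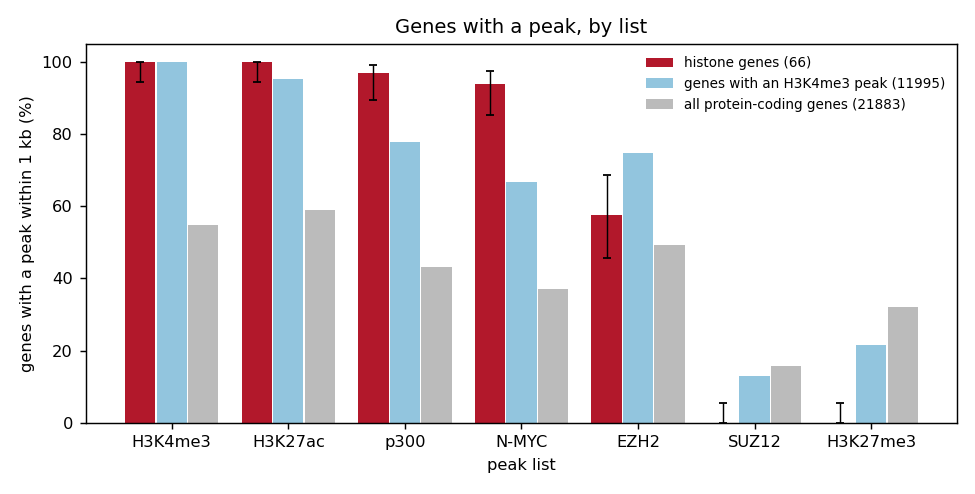
Share of genes with a peak within 1 kb of the gene span (vertical axis, percent) in each of the 7 peak lists (horizontal axis), for the 66 histone genes, the 11995 genes with an H3K4me3 peak and all 21883 protein-coding genes. Error bars are 95% Wilson intervals over the histone genes. The histone bars stand above both others for p300 and N-MYC, between them for EZH2, and at 0 for SUZ12 and H3K27me3.

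A gene was said to carry a mark when a peak of that list overlapped its span, or the 1 kb on either side, by at least 1 bp. The histone genes carried the marks of active promoters throughout and no Polycomb mark. H3K4me3 lay at 66 of 66 members, against 54.8% of all protein-coding genes, and H3K27ac at 66 of 66, against 59.1%. p300 lay at 64 (97.0%, 95% Wilson interval 89.6 to 99.2%), against 43.3%, and N-MYC at 62 (93.9%, 85.4 to 97.6%), against 37.2%. Since all members had H3K4me3, the closer background is the genes with an H3K4me3 peak, of which 95.2% had H3K27ac, 77.7% p300 and 66.7% N-MYC.

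SUZ12 and H3K27me3 were each found at 0 of 66 members (Wilson upper bound 5.50%). SUZ12 lay at 15.7% of all genes and 13.1% of those with H3K4me3, and H3K27me3 at 32% and 21.7%. All genes have a median length of 17170 bp against 492.5 bp for the members, so their windows have more room for a peak. Within 1 kb of the gene start, SUZ12 lay at 12.8% and H3K27me3 at 24.3% of 17491 genes, and each at 0 of 61 members. The count stayed at 0 with windows of 2 kb, with the gene span alone and with every other reading tried. The closest H3K27me3 peak to any member was 5921 bp from its span and the closest SUZ12 peak 19985 bp away, with medians over members of 36707 and 109217 bp.

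EZH2 lay at 38 of 66 members (57.6%, 45.6 to 68.8%), between the 49.2% of all genes and the 74.7% of genes with H3K4me3. At all 38 it was thus called without SUZ12 or H3K27me3. H3K4me3, H3K27ac, p300, N-MYC and EZH2 were all present, with neither Polycomb mark, at 37 members (56.1%), against 25.7% of all genes and 46.9% of genes with H3K4me3. Among genes with the other 4 of these marks and no Polycomb mark, EZH2 was missing at 23 of 60 members (38.3%, 27.1 to 51.0%) and at 14.5% of 6573 genes. The EZH2 count was 27 with the gene span alone and 28 with peaks of a q-value of at most 1e-05. Within 1 kb of the gene start EZH2 lay at 33 of 61 members (54.1%), against 46.0% of 17491 genes.

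Members often share peaks, so these counts are not independent. The 66 genes lie close together, with a median length of 492.5 bp, and 52 of their windows overlap the window of another member. They were covered by 39 different H3K4me3 peaks, 44 H3K27ac peaks, 54 p300 peaks, 59 N-MYC peaks and 33 EZH2 peaks. The copies are also nearly identical in sequence, and how reads that match several copies were treated is not given in the sources used here, so the copy to which a peak belongs is uncertain. What this does to the values was not tested.

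**Figure D2:**
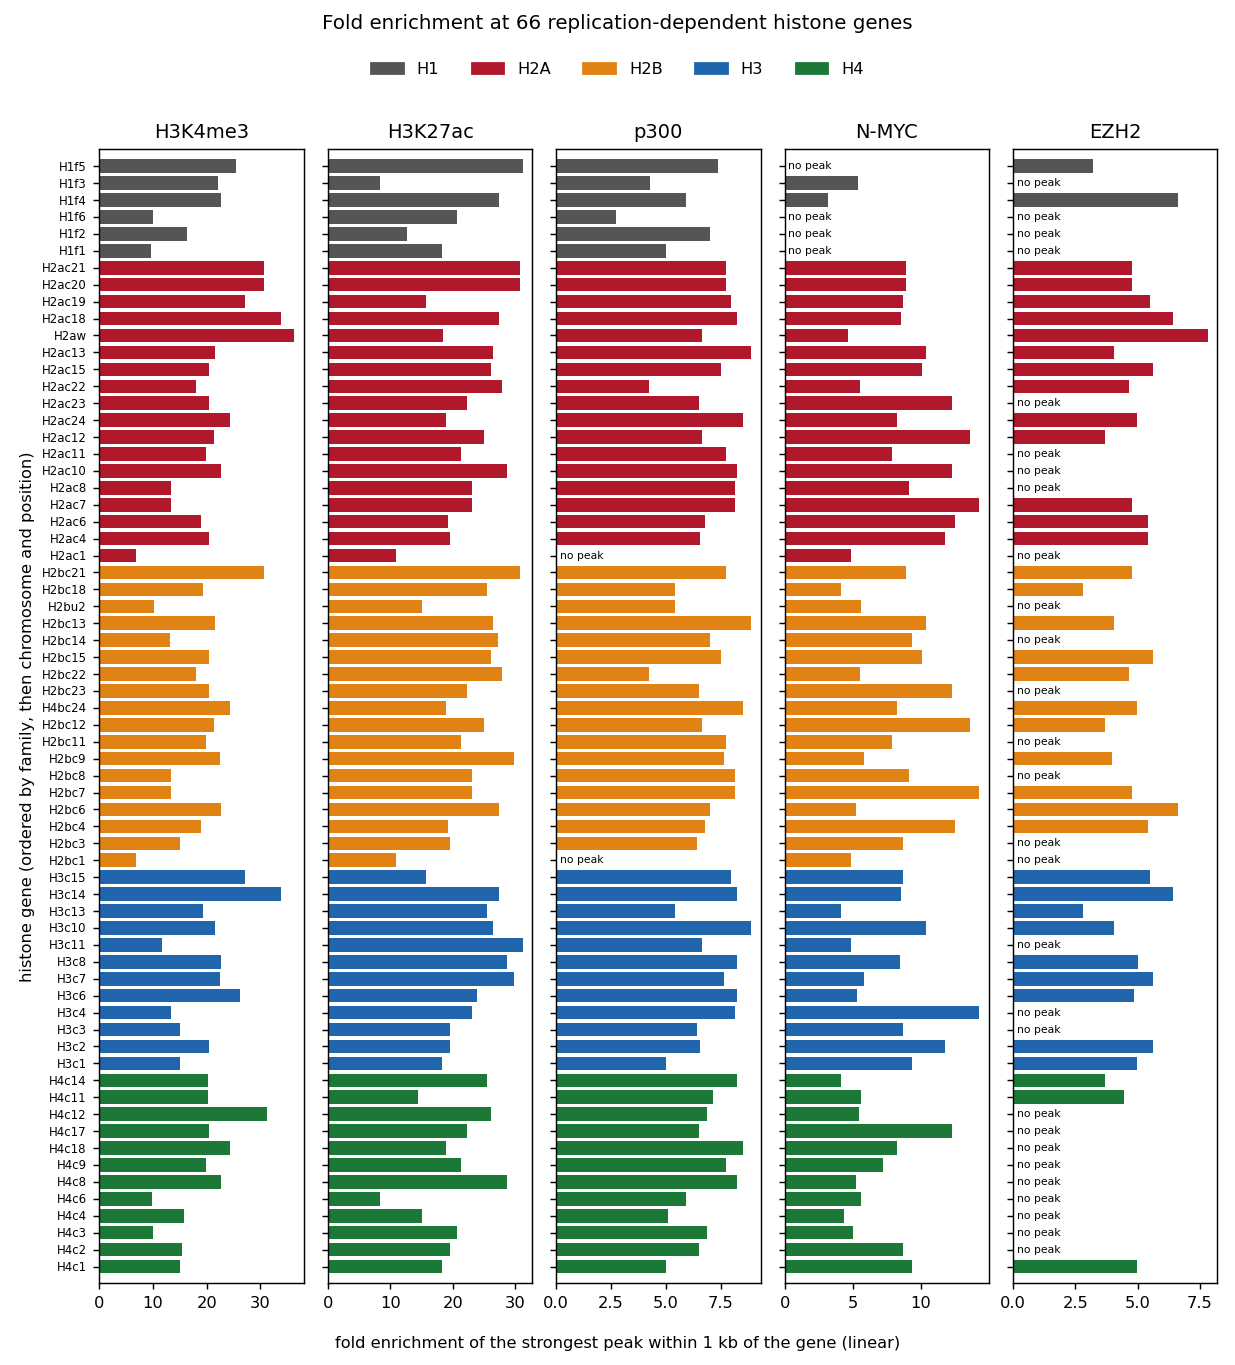
Fold enrichment of the strongest peak within 1 kb (horizontal axes, linear, 1 scale per list) for each of the 66 genes (vertical axis), coloured by family. H3K4me3 and H3K27ac have a bar at every gene, N-MYC is missing at 4 H1 genes, and EZH2 is missing at 9 of 12 H4 genes. Neighbours that share a peak have bars of equal length.

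The strength of the peaks set the marks apart. The fold enrichment is the authors' value for a peak over its background, and the strongest peak in its window stood for a gene, with values compared within a list only. H3K27ac was strong: the median fold enrichment over the members was 23.0, against 12.2 over all genes with a peak, and 62 of 66 members were above that gene median. H3K4me3 was lower than at most genes, with a median of 20.3 against 26.3, and 57 of 66 members were below the gene median. The median member stood at percentile 91.7 among genes with H3K27ac and 32.3 among genes with H3K4me3.

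p300 had a median of 7.07 against 5.33, with 56 of 64 members above the gene median. EZH2 had a median of 4.90 against 5.86, with 33 of 38 members below. N-MYC had a median of 8.61 against 5.97, with 40 of 62 members above. The N-MYC difference depended on which peak stood for a gene: with the peak whose summit was nearest, the median was 5.78 against 5.62 over all genes, and 32 of 62 members were above. Under that reading H3K27ac (22.6 against 6.58) and p300 (6.95 against 4.77) were still higher, and H3K4me3 (20.3 against 22.95) and EZH2 (4.79 against 5.33) lower, than over all genes.

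Set against genes of like H3K4me3 strength and without Polycomb peaks, the EZH2 shares differed less from the background than the N-MYC shares at the lower levels. Of members with an H3K4me3 fold enrichment up to 15, 2 of 14 (14.3%) had EZH2, against 11.3% of genes. Between 15 and 25 it was 26 of 41 (63.4%) against 53.6%, and above 25 it was 10 of 11 (90.9%) against 93.0%. H3K27ac differed at each level: its median fold enrichment was 21.9 against 8.67, 22.2 against 12.2 and 27.4 against 15.7. N-MYC lay at 12 of 14 members (85.7%) against 39.6% of genes and at 40 of 41 (97.6%) against 67.0%. At the highest level it lay at 10 of 11 (90.9%) against 81.5%, a gap of about 1 gene. These differences were not tested.

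The H1 genes, which encode the linker histones, differed from the core histone genes in N-MYC. All 6 had H3K4me3 (fold enrichment 9.65 to 25.5), H3K27ac (8.35 to 31.2) and p300 (2.73 to 7.38). N-MYC was called at 2 of 6, H1f3 (5.36) and H1f4 (3.21), and was missing at H1f5, H1f2, H1f1 and H1f6. These were the 4 members without N-MYC, while all 60 core histone genes had it. With 2 kb on either side N-MYC reached 4 of 6, through peaks over neighbouring core genes, and H1f5 and H1f2 stayed without. With a q-value of at most 1e-05, or a fold enrichment of at least 4, it was at 1 of 6, H1f3. The H1f3 peak of 5.36 lay past the end of the gene, and the N-MYC peak over its span was 2.72. H1f5 had the highest H3K4me3 of the family, at 25.5, with H3K27ac at 31.2, p300 at 7.38 and EZH2 at 3.19. The other 3 without N-MYC were below the family's H3K4me3 median of 19.3, at 16.4 for H1f2, 9.65 for H1f1 and 9.98 for H1f6. H1f4 had H3K4me3 at 22.8 and the highest EZH2 of the family, at 6.62. H1f6, the testis linker histone H1t, had H3K4me3 at 9.98 and H3K27ac at 20.7, both from peaks that it shares with H4c3, and no H3K4me3, p300, N-MYC or EZH2 peak touched its own span.

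All 18 H2A genes had N-MYC, with a median fold enrichment of 9.03 and a range of 4.67 to 14.3, and 13 had EZH2 (median 4.97). The highest H3K4me3 of the family, and of the set, was at H2aw on chromosome 11, at 36.3. H2aw also had the highest EZH2, at 7.81, with H3K27ac at 18.5, p300 at 6.64 and N-MYC at 4.67, and its window shares these peaks with Trim17, a ubiquitin ligase gene. H2ac18 on chromosome 3 was next for H3K4me3, at 33.9, and had EZH2 at 6.42. The strongest N-MYC peak of the set, at 14.3, was centred in H2ac7, and ranked at 128 of 9798 in its list.

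The 18 H2B genes all had N-MYC too (median 8.81, range 4.12 to 14.3), and 11 had EZH2 (median 4.76). H3K4me3 was highest at H2bc21 on chromosome 3, at 30.8, followed by H4bc24 at 24.3. H2bc21 had H3K27ac at 30.8, p300 at 7.75, N-MYC at 8.91 and EZH2 at 4.76. H2bu2 on chromosome 11 was low, with H3K4me3 at 10.1 and no EZH2. The H2B genes include members with long annotated spans, and without the 6 members over 2 kb, EZH2 lay at 6 of 12 H2B genes.

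The H3 genes had EZH2 at 9 of 12 (75%, median fold enrichment 5.03), a share near the 74.7% of genes with H3K4me3 and near that of H2A (13 of 18, 72.2%). H3 and H2A changed order with the reading: with the summit inside the window EZH2 was at 8 of 12 H3 and 13 of 18 H2A genes. N-MYC lay at 12 of 12 (median 8.61). H3c14 on chromosome 3 led for H3K4me3, at 33.9, with EZH2 at 6.42, N-MYC at 8.56 and p300 at 8.25. H3c15, on the same chromosome, had H3K4me3 at 27.2, EZH2 at 5.51, N-MYC at 8.65 and H3K27ac at 15.7. The H3 genes without EZH2 were H3c11, H3c4 and H3c3, named for their small number, and they had H3K4me3 between 11.6 and 15.1, below the family median of 21.0.

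The H4 genes had EZH2 least often, at 3 of 12, together with H3K4me3 (median 20.02), H3K27ac (20.1) and p300 (6.89) at 12 of 12. The 3 were H4c1 (4.97), H4c11 (4.44) and H4c14 (3.70). N-MYC lay at 12 of 12 (median 5.59). H4c12 had the highest H3K4me3 of the family, at 31.3, with H3K27ac at 26.1, p300 at 6.89 and N-MYC at 5.45, yet no EZH2. H4c18 followed with H3K4me3 at 24.3, N-MYC at 8.27 and no EZH2 either. EZH2 was at 4 of 12 H4 genes with 2 kb on either side and at 1 of 12 with the gene span alone. H4 had the lowest share of the families, or the same share as H1, in each reading tried.

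**Figure D3:**
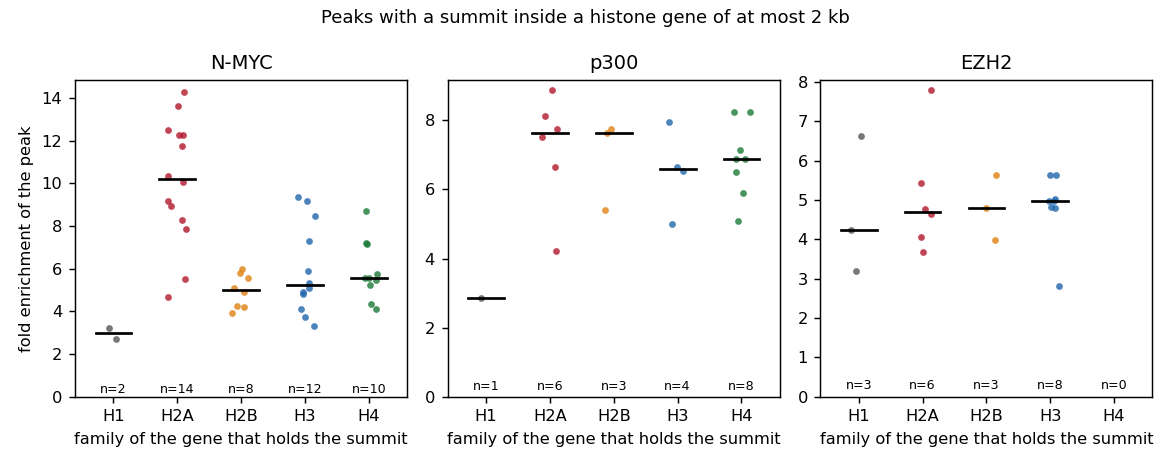
Fold enrichment (vertical axes, from 0) of N-MYC, p300 and EZH2 peaks whose summit lies inside a histone gene of at most 2 kb, by the family of that gene (horizontal axis). Each point is a peak, and the bar is the median. N-MYC peaks centred in H2A genes reach 14.3, those in H2B genes stay at or under 5.98, and no EZH2 summit falls in an H4 gene.

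Reading each peak by the gene that holds its summit removes the sharing between neighbours. Of the 59 N-MYC peaks at the members, 46 (78.0%) had their summit inside a histone gene of at most 2 kb. In H2A genes 14 of these peaks had a median fold enrichment of 10.2 (range 4.67 to 14.3), against 5.0 for 8 peaks in H2B genes (3.93 to 5.98), whose values overlap the lower end of the H2A range. The 12 peaks in H3 genes had a median of 5.22 (3.32 to 9.37), the 10 in H4 genes 5.59 (4.12 to 8.70), and the 2 in H1 genes had values of 2.72 and 3.21. EZH2 differed in order: 8 of 12 H3 genes held an EZH2 summit (median of the peaks 4.97) and none of the 12 H4 genes did. A further 2 N-MYC summits lay in histone pseudogenes, H2ac14 (9.34) and H2ac5-ps (8.70), which the members do not include.

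Head-to-head pairs of an H2A and an H2B gene, which face away from each other across a shared promoter, show the same order side by side. Among the members with a listed gene start there were 10 such pairs, with starts 164 to 281 bp apart (median 204.5). The strongest N-MYC summit inside either gene was in the H2A gene in 9 of 10 pairs. At H2ac7 and H2bc7 the values were 14.3 and 5.10. At H2ac12 and H2bc12 they were 13.6 and 4.27, and at H2ac8 and H2bc8 9.15 and 3.93. In 4 pairs the only summit was in the H2A gene (H2ac15, H2ac22, H2ac23 and H2ac11). The exception among the 10 was the testis pair, with N-MYC at 4.90 in H2bc1. H2bc4 and H2bc21 have no listed start, so they could not be paired with their neighbours H2ac6 and H2ac20. N-MYC summits lay in H2ac6 (12.5) and in H2bc4 (5.61). H2bc21 held an N-MYC summit at 5.57 and H2ac20 held none, which is the other order. EZH2 had no such order: its strongest summit was in the H2A gene in 3 pairs, in the H2B gene in 3, and in neither gene in 4.

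The testis pair H2bc1 and H2ac1, which encode histones known for their role in sperm precursors, lies apart from the other members at the far end of the distal cluster. Both genes had H3K4me3 at 6.77, the lowest of the set, H3K27ac at 10.96 and N-MYC at 4.90, from peaks that they share. They were the 2 members without p300, and they had no EZH2. Within their own spans, H2ac1 had no H3K4me3 and no N-MYC peak.

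**Figure D4:**
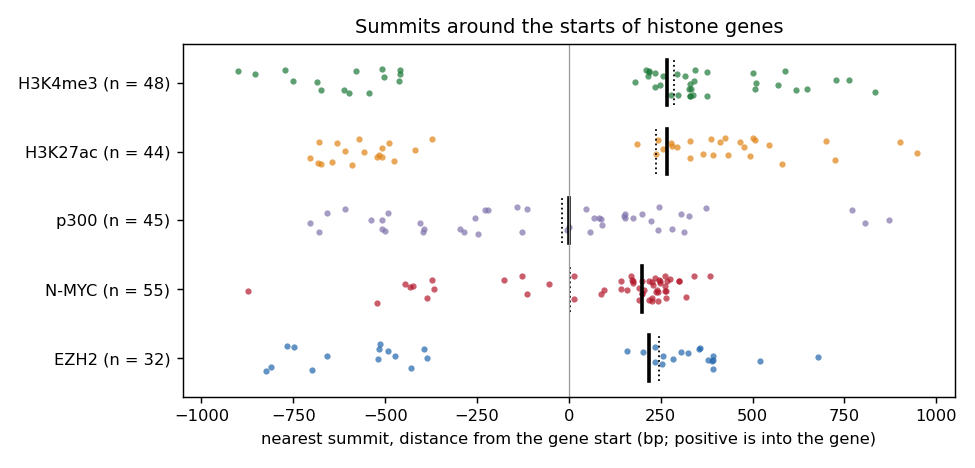
Distance from the gene start to the nearest summit (horizontal axis, bp, positive into the gene) for the members with a known strand and a summit within 1 kb, 1 row per list. Solid lines are the medians over members and dotted lines those over all genes. The N-MYC summits gather near 200 bp inside the genes, while the dotted N-MYC line is close to the start.

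N-MYC summits lay mostly inside the histone genes and less at their starts. Over 55 members with a known start and an N-MYC summit within 1 kb, the nearest summit was at a median of 200 bp past the start (quartiles 51.0 and 247.5), and 78.2% were downstream. Over 5702 genes the median was 3.5 bp, and 50.7% were downstream. For p300 the medians were 0 bp over members and -18 bp over all genes, for EZH2 217.5 and 245 bp, for H3K4me3 267 and 285 bp, and for H3K27ac 267 and 238 bp. The downstream share was lower over members than over all genes for EZH2 (56.2% against 79.3%), H3K4me3 (68.8% against 85.7%) and H3K27ac (59.1% against 73.6%), and was 48.9% against 46.5% for p300. Without regard to direction, summits were farther from the start at members in all 5 lists, by the median distance. It was 235 against 127 bp for N-MYC, 256 against 152 bp for p300 and 391.5 against 294 bp for EZH2. For H3K4me3 it was 459.5 against 318 bp, and for H3K27ac 497.5 against 314 bp. Neighbouring members lie within 1 kb of each other, so the same summit can count at several of them, inside a gene and upstream of its neighbour. The same H3K4me3 summit stood at 315 bp for H2ac13 and at -544 bp for H2bc13. The part of this sharing in the distances and downstream shares was not tested.

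Short genes as a class also tend to hold summits. Among genes of at most 2 kb with an N-MYC peak, 46 of 56 members (82.1%) and 68.8% of 186 other genes had a summit in their span. For the other marks the members were lower, at 46.7% against 77.7% for H3K4me3, 23.3% against 76.8% for H3K27ac, 37.9% against 59.0% for p300 and 57.6% against 77.6% for EZH2. The members are shorter than those other genes, with a median of 487.5 bp against 954 bp. A peak has 1 summit, so members that share a peak cannot all hold it, which lowers their share. Several members shared 21 of 39 H3K4me3 peaks and 23 of 44 H3K27ac peaks. Counted by peak, the summit was in such a member for 71.8% of H3K4me3, 31.8% of H3K27ac, 40.7% of p300, 60.6% of EZH2 and 78.0% of N-MYC peaks. The part of sharing in the differences was not tested.

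The promoter letters did not hold the E-box. The E-box CACGTG, the best-known binding site of MYC proteins, was in 0 of 61 member promoters and in 8.09% of 27025 mouse promoters of the same length. Motifs were searched on both strands over 300 bases. Head-to-head pairs share part of their promoter and so count more than once, and no match says only that these letters are not in that window. Most N-MYC summits of the members lay past the end of that window. Over 55 members the nearest was at a median of 200 bp past the start (lower quartile 51.0), against 3.5 bp over 5702 genes. The bases at most of these member summits were thus not searched, and whether an E-box lies there was not tested. The CCAAT box was in 53 promoters (86.9%), against 41.1% of all, and TATAAA in 35 (57.4%), against 15.7%. The octamer ATTTGCAT, known as a site of the factor Oct-1, was in 14 (23.0%), against 1.97%, and all 14 were H2A or H2B promoters, 7 of each. The E2F-like word TTTCGCGC was in 9 (14.8%), against 0.374%, in 5 H2A and 4 H2B promoters, while TTTGGCGC was in 0, against 0.585%. All of the 9 but H2ac10 belong to head-to-head pairs. For H2bc7 with H2ac7, and H2ac12 with H2bc12, TTTCGCGC and TATAAA were counted but are not among the bases printed between the starts. There the counted words lie at or past a gene start, because the window reaches into the genes. The H1 box AAACACA was in 5 of 6 H1 promoters and in 9 members in all (14.8%), against 8.22%.

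By family, the CCAAT box was in every promoter of H1, H2A, H2B and H3 genes found in the table, and in 3 of 11 H4 promoters. The CCAAT box was in 32 of 33 promoters of members with EZH2 and in 21 of 28 without, and the 8 promoters that lacked it were all of H4 genes. The octamer was in 8 of 33 with EZH2 and 6 of 28 without. The median GC content of the member promoters was 45.3%, below the 52.7% of all promoters.

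**Figure D5:**
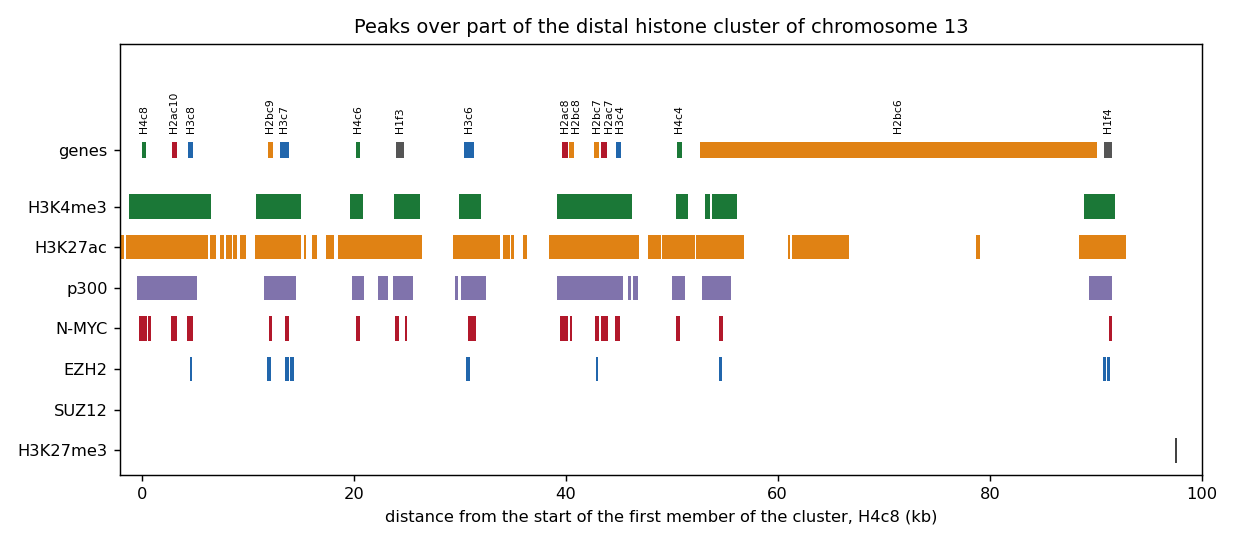
Peaks of the 7 lists (boxes, 1 row per list) and the histone genes (top row, coloured by family as in the other plots) over the first part of the distal cluster of chromosome 13, in kb from the start of H4c8. Box widths are to scale and carry no strength. H3K4me3 boxes bridge several genes, N-MYC boxes are about as long as single genes, EZH2 boxes are few and narrow, and the SUZ12 row is empty.

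Across the clusters the active marks took the form of broad blocks. Of the 39 H3K4me3 peaks at members, 21 covered the windows of several members. The peak over H2ac8, H2bc8, H2bc7, H2ac7 and H3c4 covered 5 members in 7098 bp, and the widest, over H4c8, H2ac10 and H3c8, was 7806 bp. H3K27ac peaks at members had a median width of 4260 bp, against 414 bp over the whole list, and H3K4me3 peaks 2685 bp against 1655 bp. N-MYC peaks were of the usual width, at 480 bp against 490 bp, and EZH2 peaks were narrow, at 327 bp against 504 bp. The whole lists hold peaks of every strength, at genes and away from them, and widths were not compared among like peaks.

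The wider and stronger H3K4me3 blocks were those with EZH2. Of the 39, 22 overlapped an EZH2 peak (56.4%, 41.0 to 70.7%), with a median width of 3744 bp and a median fold enrichment of 21.5. The other 17 had a median width of 1620 bp and a median fold enrichment of 13.1. Wider peaks have more room for an overlap, and the part of width was not tested. Over the 22 blocks with both, the fold enrichments of H3K4me3 and EZH2 had a Pearson correlation of 0.48 (Spearman 0.35), and over 34 blocks those of H3K4me3 and N-MYC had one of 0.03 (Spearman 0.03). Over 21 blocks those of N-MYC and EZH2 had one of -0.09 (Spearman -0.03). These are descriptions across blocks of single libraries.

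Chromosome 3 stood out among the clusters. All 10 of its members had EZH2, against 13 of 23 in the proximal cluster, 14 of 31 in the distal cluster and 1 of 2 on chromosome 11. The 10 were covered by 9 EZH2 peaks, several of them shared by neighbours. EZH2 was not strongest there: its median fold enrichment was 4.76, against 4.44 in the proximal and 5.23 in the distal cluster. With a q-value of at most 1e-05, EZH2 was missing at H4c14, H3c13 and H2bc18 of chromosome 3. Members of other clusters lost it too, and the count over all clusters was then 28 of 66. The H3K4me3 of chromosome 3 was also the highest of the large clusters, with a median of 29.0 against 20.4 and 15.4. Its H3K27ac median was 26.4 against 25.1 and 19.6. N-MYC did not follow that order, with medians of 8.61, 8.80 and 8.70. EZH2 peaks on chromosome 3 ran from 2.83 at H3c13 and H2bc18, which share the weakest EZH2 peak of the set, to 6.42 at H2ac18 and H3c14. H2ac21 and H2ac20 have the same strongest peaks as H2bc21, H2ac19 the same as H3c15, and H4c14 had H3K4me3 at 20.2, N-MYC at 4.12 and EZH2 at 3.70.

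Polycomb peaks were present in both chromosome 13 clusters, but between the histone genes. The distal cluster held 36 H3K27me3 peaks over 4.48% of its length and 0 SUZ12 peaks, and the proximal cluster held 18 H3K27me3 peaks over 9.30% of its length and 12 SUZ12 peaks, all outside the windows of the members. The clusters on chromosomes 3 and 11 held neither. In the proximal cluster 11 of 18 EZH2 peaks also lay away from the members, whereas in the distal cluster all 15, and on chromosome 3 all 9, were at members. N-MYC peaks were at members in 30 of 30 cases in the distal cluster, 17 of 18 in the proximal cluster and 9 of 9 on chromosome 3.

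The 10 other protein-coding genes inside the clusters differed from the histone genes. H3K27me3 lay at 6 of them, SUZ12 at 2, H3K4me3 at 4 and N-MYC at 1, Trim17. Over all protein-coding genes the shares were 32% for H3K27me3, 15.7% for SUZ12, 54.8% for H3K4me3 and 37.2% for N-MYC. For 10 genes, the SUZ12 and H3K4me3 counts are near those shares. In the distal cluster the phosphate transporter genes Slc17a1, Slc17a2 and Slc17a3 and the ubiquitin ligase gene Trim38 had H3K27me3 (5.06 to 5.62) and no active mark. In the proximal cluster Prss16, a thymus-specific protease gene, had H3K27me3 at 12.99, SUZ12 at 5.51, EZH2 at 6.88 and H3K4me3 at 7.88. Zfp184, a zinc finger gene, had H3K4me3 at 23.4 and EZH2 at 3.54 with no Polycomb mark and no N-MYC.

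The genes that serve histone supply elsewhere in the genome mostly carried active marks. H3K27ac had a median of 13.1 at the transcription and processing genes and 17.8 at the chaperone genes read below. Over all genes with a peak it was 12.2, and at the clustered genes 23.0. Of 18 genes for histone gene transcription and histone mRNA processing, all had H3K4me3 (median 30.7), H3K27ac (13.1) and p300, 16 had N-MYC and 15 EZH2 (median 6.24), and 14 had all 5 with no Polycomb mark. The shares of all genes with H3K4me3 that had N-MYC (66.7%) and EZH2 (74.7%) are the background for these counts. Npat, the coactivator of the clusters, had H3K4me3 at 36.3, H3K27ac at 27.1, N-MYC at 12.5 and EZH2 at 7.16. Slbp, the stem-loop binding protein, had H3K4me3 at 34.0, N-MYC at 5.20 and EZH2 at 7.77. Sympk and Cstf2t had no N-MYC, Lsm10, Zfp473 and Cstf2t had no EZH2, and Sympk alone of the 18 had SUZ12 (4.86) and H3K27me3 (11.6). Of 11 histone chaperone genes all had EZH2, 9 had N-MYC (not Asf1b or Chaf1a), and none had a Polycomb mark.

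The histone genes outside the clusters, which mostly encode variants made through the whole cell cycle, had EZH2 at 12 of 12 and H3K4me3 at 11 of 12 (median 36.3). Their EZH2 median of 5.97 and their N-MYC median of 5.09 at 9 of 12 compare with 4.90 and 8.61 for the clustered genes. Their H3K27ac median was 21.5 at 10 of 12, and that of the T cell genes 21.2 at 7 of 10. Both are near the 23.0 of the clustered genes, so high H3K27ac was not particular to the clusters. Polycomb marks, at 0 of 66 clustered genes, were at 3 of these 12: H1f10 and Macroh2a2 had SUZ12 and H3K27me3, and H1f0 had H3K27me3 alone. H3K27me3 lay at 32% of all genes and 21.7% of those with H3K4me3, and SUZ12 at 15.7% and 13.1%. The Polycomb counts of these 12 genes were thus near the usual shares. EZH2 lay at 49.2% of all genes and 74.7% of those with H3K4me3, and H3K4me3 at 54.8% of all genes. H4f16, the lone Hist4h4 gene on another chromosome, had H3K4me3 at 25.1, H3K27ac at 23.0, N-MYC at 6.48 and EZH2 at 5.51.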

How the data were processed

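ChIPmentation libraries of 7 antibodies were read from 1 peak list each, and the 2 input libraries were not used here. FastQC, Bowtie2, SAMtools, MACS2 and deepTools and the builds mm10 and GRCm38 are named, without versions, in the submitters' processing notes. Treatment of reads with several matches, use of the inputs and pooling are not given in the sources used here. Fold enrichment is used as deposited by the authors, a linear ratio of each peak to its background. The deposited p-value and q-value columns are on a −log10 scale, and no listed q-value is above about 0.01. A deposited whole-number score was not used. Where no peak is listed, no call was made, which does not show absence.

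A peak was read at a gene when it overlapped the gene span or 1 kb on either side by at least 1 bp (Python 3.11.15, pandas 2.3.3, numpy 2.4.6). The strongest such peak stood for the gene. The same reading over 21883 RefSeq protein-coding genes gave the background, and shares have 95% Wilson intervals (statsmodels 0.14.6), which describe genes in these lists and not animals. Clusters were split at gaps of over 200 kb. Overlap reading was tested on simulated data, where 200 of 200 planted genes were found among 3421. Alternatives changed the window, the overlap, the threshold and the assignment of peaks. Those that left out long members or took the strongest peak near the gene start were chosen after seeing the data.

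The genes to be named were the members with a Polycomb peak or without H3K4me3 (none), the 2 highest for H3K4me3 in each family, the testis genes and those on chromosomes 3 and 11. Other members are named after their values were seen, as are the head-to-head pairs. The members and lists were chosen with earlier results of these data known.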

Additional observations from a re-analysis of the deposited data

How the results depend on the processing

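Over 13 results, 67 of 79 alternative values stayed within their error or within 1.5 times the count, and 12 moved. Giving each peak to its nearest gene only, which by construction leaves a shared peak with 1 gene, gave shares of 54.5% for H3K4me3, 47.0% for H3K27ac, 59.1% for p300, 81.8% for N-MYC and 42.4% for EZH2, and 8 members with all 5 marks. Requiring the summit inside the window gave 83.3% for H3K4me3, 74.2% for H3K27ac and 84.8% for p300. EZH2 lay at 40.9% of members with the gene span alone and at 42.4% with a q-value of at most 1e-05. The N-MYC median was 5.78 with the nearest summit. The SUZ12 and H3K27me3 shares were 0 under each alternative run for them, and their medians had no value to recompute. The depth is unknown, and the lack of replicate libraries limits every statement to these lists. No paired analysis was possible because each antibody has 1 library.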
